A study of Mus musculus with 3 samples.

Results

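The sites described here are the binding sites of REV-ERB alpha on mouse chromosome 8. They were chosen by chromosome alone: all 1415 peaks that the deposited REV-ERB alpha peak list places there, of 24461 peaks in the list (5.78%). The list came from chromatin immunoprecipitation followed by sequencing (ChIP-seq) of liver from male C57BL/6 mice aged 20 weeks, entrained for 3 days to 12 hours of light and 12 hours of dark and harvested at zeitgeber time 8, that is 8 hours after lights on. Cells had been fixed with 2 mM disuccinimidyl glutarate, a crosslinker between proteins, and then with 1% formaldehyde. There was 1 library with the REV-ERB alpha antibody and 1 input library, made from liver of mice with the same strain, age and harvest time labels and without an antibody. The labels name no genetic change or drug. The REV-ERB beta list as used here holds 0 peaks on this chromosome, so the beta receptor is not described. The labels do not say how many animals went into a library. With 1 library there is no replicate error and no test between conditions; the 95% intervals given below cover counting error only, and treat tags or peaks as independent, which they need not be.

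REV-ERB alpha, the product of Nr1d1, is a nuclear receptor that binds heme and sits in the negative limb of the circadian clock. It lacks the helix that lets other nuclear receptors recruit coactivators, and it represses its target genes by bringing the NCoR corepressor and a histone deacetylase to DNA. Its DNA element is a single copy of the nuclear receptor core sequence behind an A/T-rich stretch, which it shares with the activating ROR receptors. In liver it is known for repressing clock genes such as Arntl (Bmal1) and genes of lipid and bile acid metabolism, in a daily rhythm that follows the rise and fall of its own protein. No sequence of the mm9 assembly was used here, so the DNA under the peaks is not shown and the sites are given by position. All positions are on chromosome 8 of mm9. Genes were not assigned to peaks by distance.

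Chromosome 8 carried sites of about the same height as the rest of the genome, but they were packed more closely into groups than on most autosomes. The median peak held 28 tags in its window of 153 bp (quartiles 19 and 46; range 12 to 240), where a tag is 1 aligned read and the count is not scaled to the size of the library. On the other 18 autosomes pooled, the median was 27 tags (quartiles 19 and 44; range 11 to 456). The median on chromosome 8 lay inside the range of the other autosomes, from 26 tags on the lowest to 30 on chromosome 15. Counted by the positions at which tags start, which removes repeated tags, the medians were 24 positions on chromosome 8 and 23 on the other autosomes. Each position carried a median of 1.18 tags on chromosome 8 and 1.17 elsewhere.

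Counted by tags, strong peaks were about as frequent on chromosome 8 as in the whole list, and its tallest peak was lower than that of most autosomes. Peaks in the highest 10% of the whole list, which held at least 70 tags, numbered 148 on chromosome 8, or 10.5% of its peaks (Wilson interval 8.97% to 12.2%), against 10.2% of all alpha peaks. These shares differ by less than the counting error. Ranked by tag density over the surrounding 10 kb in place of tags, 8.41% of chromosome 8 peaks (7.07% to 9.97%) were in the highest 10%, against 10.0% of the whole list, which lies outside that interval. In the highest 1% of the list, with at least 154 tags, chromosome 8 had 12 peaks, or 0.848% (0.486% to 1.48%), against 1.03% of all alpha peaks, which is also within the interval. Its tallest peak held 240 tags and stood at rank 38 of the list. Of the 19 autosomes, 15 had a taller highest peak, and the tallest of all, on chromosome 10, held 456 tags.

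Most of the tags lay in a minority of the sites. The tallest 354 peaks, a group of 25% that held 46 to 240 tags each, together had 50.3% of all tags in chromosome 8 windows. The lowest 354 peaks, with 12 to 19 tags each, had 10.9%. At the bottom of the range the list is limited by the peak caller: 136 peaks (9.61%) had the lowest score in the list, 14, and held 12 to 23 tags with at most 4 input tags. Sites weaker than these are not in the list and are not shown to be unbound. The peak with the fewest tags, at 34762900 to 34763052, held 12 tags against 0 input tags. The next 4 by position, among those with 13 tags, lay at 11758090 to 11758242, 12900170 to 12900322, 23655813 to 23655965 and 44244252 to 44244404, with 2, 2, 1 and 1 input tags.

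**Figure D1:**
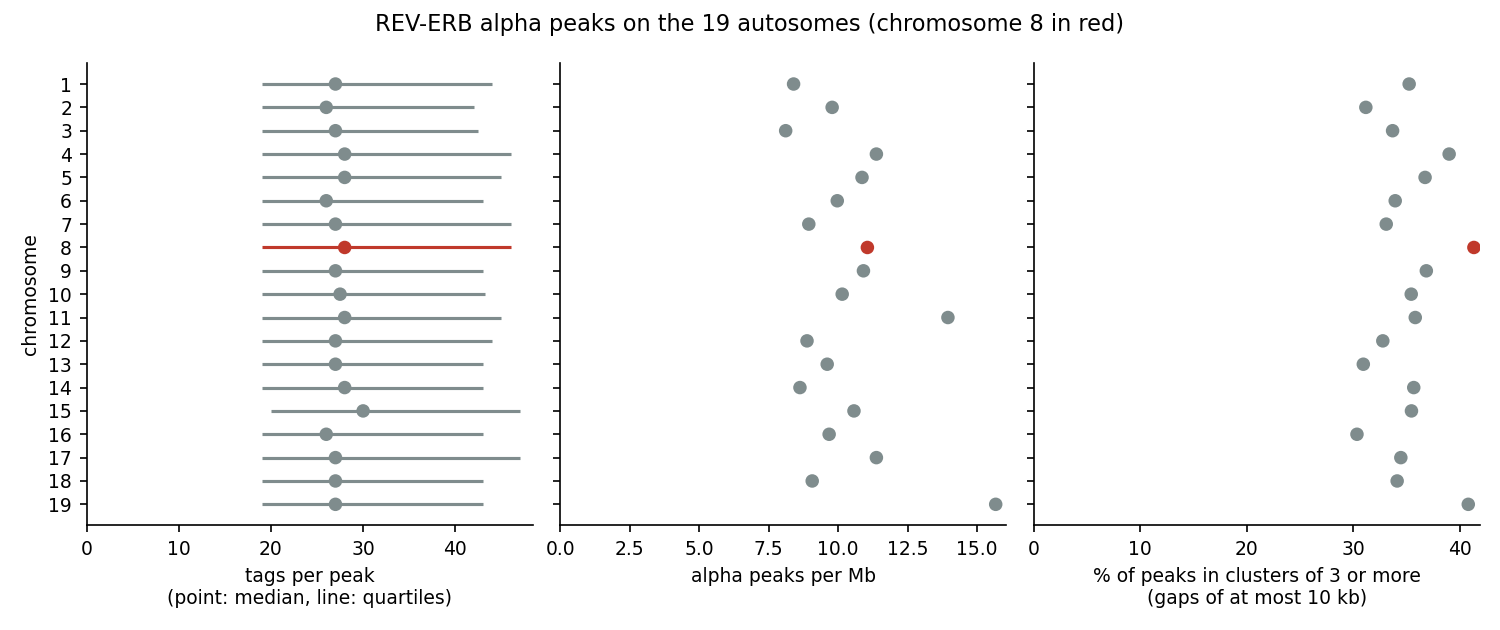
Peaks of REV-ERB alpha on each of the 19 autosomes, with chromosome 8 in red: tags per peak (point, median; line, quartiles), peaks per Mb between the first and last peak, and the percentage of peaks in clusters of 3 or more. Chromosome 8 has a median of 28 tags, like its neighbours, 11.1 peaks per Mb and the highest clustered share, 41.3%, close to the 40.8% of chromosome 19.

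The 20 tallest sites ranged from 137 to 240 tags and held 6.23% of the chromosome's tags in peaks. The tallest lay at 95758009 to 95758161, in the carboxylesterase region described below, with 240 tags (exact Poisson interval 211 to 272) at 150 positions and 0 input tags. The second, at 124087071 to 124087223, held 220 tags (192 to 251) and 16 input tags, the most input of any chromosome 8 peak. The third, at 25539103 to 25539255, held 216 tags (188 to 247) and 7 input tags. The intervals of these 3 peaks overlap, so their order is not resolved by the tag counts. The fourth, at 36478573 to 36478725, held 189 tags (163 to 218), and its interval still reached that of the tallest. The peak at rank 5, at 129133760 to 129133912 with 177 tags (152 to 205), was the first whose interval lay wholly below that of the tallest.

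Between rank 6 and rank 10 the heights fell only from 172 to 160 tags. The peak at 14888640 to 14888792 held 172 tags and 6 input tags. A peak at 36151831 to 36151983 held 170 tags and 0 input tags, and it lay 64278 bp and 116921 bp from its neighbours. The peaks at 10940023 to 10940175 and 129244519 to 129244671 held 165 and 164 tags, with 6 and 3 input tags. The tenth, at 112108866 to 112109018, held 160 tags against 3 of input. The intervals of these 5 peaks overlap one another.

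The other 10 of the 20 held 137 to 154 tags. Those at 96695239 to 96695391 and 129259753 to 129259905 both held 154 tags, with 2 and 4 input tags. The peak at 91930702 to 91930854 held 153 tags and 0 input tags. Peaks at 11021283 to 11021435 and 41977480 to 41977632 held 150 and 149 tags. Those at 23511163 to 23511315 and 129138079 to 129138231 held 145 tags each. The last 3 lay at 121954278 to 121954430 (138 tags), 122973114 to 122973266 (138 tags) and 3416369 to 3416521 (137 tags). Input in the windows of these 10 peaks was between 0 and 7 tags.

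As a group, the tallest sites were seldom alone, but so were most peaks of the chromosome. Of the 20, 16 (80%) had another REV-ERB alpha peak within 10 kb. The share was 63.0% among all chromosome 8 peaks and 77.4% among its 354 tallest. Groups of at least 3 peaks chained by gaps of at most 10 kb held 14 of the 20, and 41.3% of all chromosome 8 peaks. The 20 were not tested against these shares, so having neighbours is not shown to be particular to them. Only 2 had another member of the 20 within 10 kb. These were the peaks at ranks 5 and 17, whose centres were 4319 bp apart. Of the 3 with 0 input tags, none had a peak within 10 kb. The choice of measure moved the ranking little for counts and much for ratios: 17 of the 20 were also among the 20 with the most tag positions and 16 among the 20 highest by the authors' peak score, whereas 5 were among the 20 highest by tag density over the surrounding 10 kb and 5 among the 20 highest by fold over input.

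**Figure D2:**
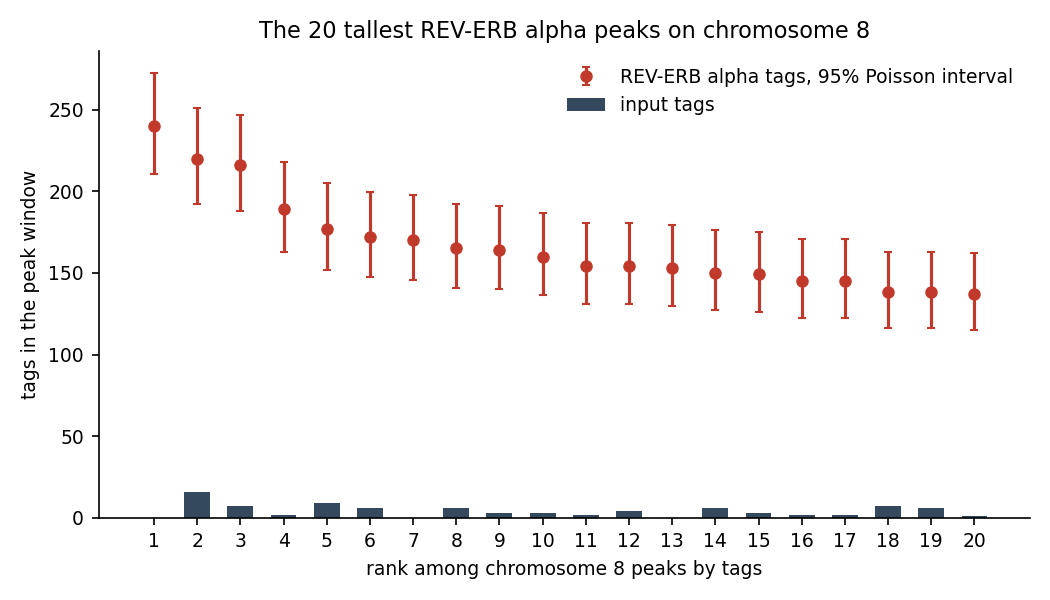
Tags in the 153 bp window of the 20 tallest chromosome 8 peaks by rank (points, with exact 95% Poisson intervals that cover counting error only) and input tags in the same windows (bars). The first 4 intervals overlap, from 240 to 189 tags, and input is at most 16 tags.

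The carboxylesterase region, from 95.6 to 95.9 Mb, held the tallest peak of the chromosome and a row of much lower ones. Carboxylesterases hydrolyse esters of lipids and drugs and are abundant enzymes of the liver. In RefSeq's gene table, which is on the later assembly GRCm38.p6 and was used here only for names and order, 8 genes of class 1 follow one another on chromosome 8 between Slc6a2, a noradrenaline transporter gene, and Ces5a: Ces1a, Ces1b, Ces1c, Ces1d, Ces1e, Ces1f, Ces1g and Ces1h. Among them Ces1d encodes a triacylglycerol hydrolase of liver and Ces1e encodes egasyn, which anchors beta-glucuronidase in the endoplasmic reticulum. That these genes lie in this mm9 window was taken from the rule that named the region and was not checked against an mm9 annotation. Which of them lies nearest to which peak was not determined.

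The region held 16 peaks in 300 kb, with 733 tags in all, a median of 24 tags (quartiles 19.5 and 37.8) and 32 input tags in all. The 240 tags of the tallest peak were 32.7% of the region's tags (Wilson interval 29.4% to 36.2%). The second, at 95776544 to 95776696, lay 18.5 kb further along with 119 tags and 0 input tags. The tallest held 2.02 times as many tags as the second (exact interval 1.61 to 2.53). These 2 peaks were picked by their tags, so the ratio had to be at least 1 and the interval is no test of it. The interval also treats repeated tags as independent. Repeated tags were part of the difference: the tallest had 150 positions with 1.60 tags each, and the second 97 positions with 1.23 each. Together these 2 sites held 49.0% of the region's tags.

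The other 14 peaks of the region were ordinary in height, from 15 to 59 tags with a median of 23.5 and at most 4 input tags. The highest of them, at 95673430 to 95673582, held 59 tags and 3 input tags. It was followed by peaks at 95687428 to 95687580 with 40 tags, at 95721897 to 95722049 with 37 and at 95796717 to 95796869 with 33. Thus 2 of the 16 (12.5%, 3.50% to 36.0%) passed 70 tags, where 10.2% of all alpha peaks did. The remaining 10 held 15 to 26 tags. The lowest, at 95804509 to 95804661 with 15 tags, was the last of a chained group of 4, whose first 3 held 33, 20 and 24 tags, and which began 38.7 kb beyond the tallest peak.

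The spacing in the region was wide around its tall peaks. The nearest peak to the tallest, at 95745908 to 95746060 with 17 tags, was 12101 bp away, so both tall peaks counted as single sites under the 10 kb rule. The largest distance between neighbouring centres in the region was 50.6 kb and the smallest 950 bp. In number of peaks the region was among the fuller windows of the chromosome but was not the fullest. Of the 252 chromosome 8 windows of 300 kb on the same grid with any peak, 12, this one included, had at least 16. The median over the 252 windows was 4 peaks and the highest count was 26. The 1 Mb before the region held 3 peaks of at most 36 tags, and the 1 Mb after it held 13 peaks of at most 154 tags.

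**Figure D3:**
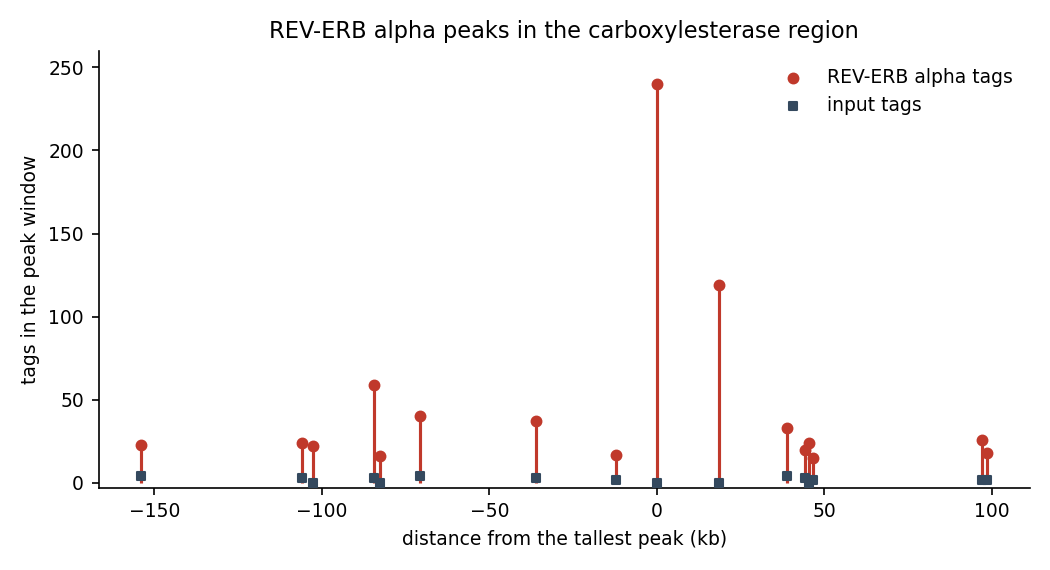
Tags (red) and input tags (dark squares) of the 16 peaks of the carboxylesterase region against their distance in kb from the tallest peak. The peak at 0 kb holds 240 tags and that at 18.5 kb holds 119, both with 0 input tags, while the other 14 hold 15 to 59 tags.

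Input, the background measured in the same windows, was low and about equal on chromosome 8 and elsewhere. The mean was 2.68 input tags per window (SD over peaks 2.03, n = 1415 peaks) against 2.67 (SD 2.05, n = 22853 peaks) on the other autosomes. A total of 172 peaks (12.2%) had 0 input tags, against 11.9% on the other autosomes. A count of 0 allows up to 3 tags, and the 240 tags of the tallest peak were 80 times that limit and the 170 tags at 36151831 were 56.7 times that limit. The 2 libraries were not scaled to each other, so such ratios hold for raw tags only. The median peak had 9 times as many tags as input (1 added to both counts; quartiles 6 and 16), the same as on the other autosomes, and the lowest ratio of tags to input was 4.70 in both, a floor that the list itself sets.

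Taller peaks had more input. In the lowest 25% of peaks by tags the mean was 1.74 input tags (SD 1.13, n = 354 peaks) and in the highest 25% it was 3.71 (SD 2.60, n = 354). Across the 1415 peaks, tags and input tags had a Spearman rho of 0.34 and a Pearson r of 0.33. All points share the same 2 libraries. The relation is not particular to chromosome 8, whose rho ranked 16 of the 19 autosomes. On the others rho ranged from 0.33 on chromosome 3 to 0.42 on chromosome 10. Where input is above 0, the floor on the ratio of tags to input keeps low peaks with high input out of the list, so a relation of this kind is in part built into it. Peaks with 0 input tags had a median of 24 tags and a range of 12 to 240, and the 33 peaks with 8 or more input tags had a median of 57 and a range of 38 to 220. The group with 0 input thus held both the lowest and the tallest peak of the chromosome.

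The 5 peaks with the most input were all above the median height. At 10 or more input tags the floor of 4.70 on the ratio of tags to input requires this. After the peak at 124087071 with 16 input tags came those at 127905715 to 127905867 (12 input tags, 104 tags) and 37795160 to 37795312 (11 input tags, 96 tags). Several peaks had 10 input tags, and the tallest of these lay at 124468935 to 124469087 with 130 tags and at 47576277 to 47576429 with 72. In all, 11 peaks of the chromosome had at least 10 input tags. None reached the 35 input tags that the highest peak by input on the other autosomes had.

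**Figure D4:**
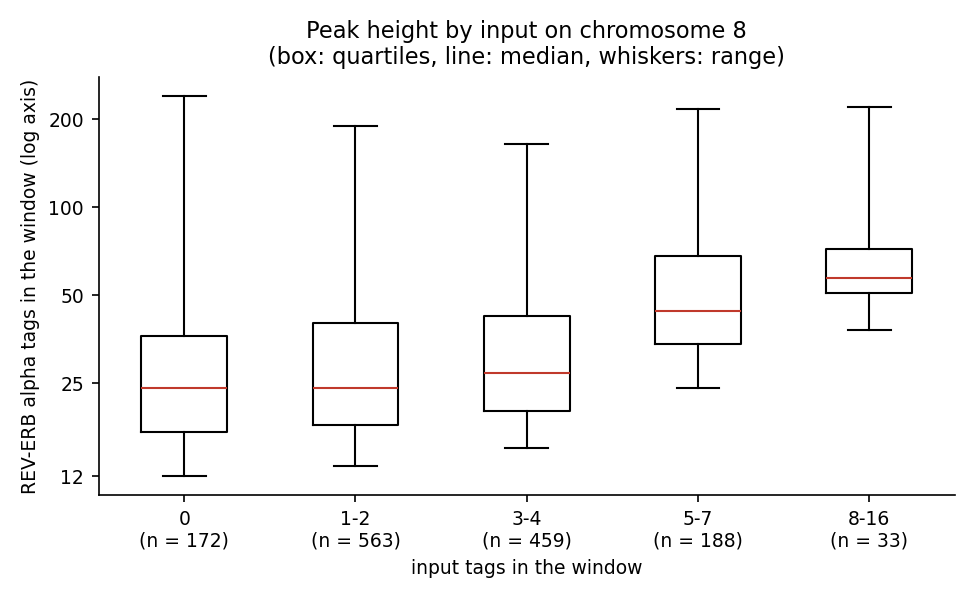
REV-ERB alpha tags per peak (log axis) on chromosome 8 by the number of input tags in the window; boxes show quartiles, red lines medians and whiskers the full range. The median goes from 24 tags at 0 input to 57 at 8 or more, and the 172 peaks with 0 input span 12 to 240 tags.

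The sites were spread unevenly along the chromosome. Between the first and the last peak there were 11.1 peaks per Mb, the fifth highest value among the 19 autosomes, whose other members ranged from 8.11 on chromosome 3 to 15.7 on chromosome 19. When the distance from first to last peak was divided into 3 equal parts, the part farthest from the centromere, which in mouse lies at the start of the numbering, held 695 peaks (49.1%), or 16.3 per Mb. The first part held 378 peaks (8.86 per Mb) and the middle part 342 (8.01 per Mb). The peaks of the middle part were also lower, with a median of 25 tags (quartiles 18 and 40) against 29 (20 and 50.5) in the last and 28 (19 and 45) in the first. In the middle part 7.60% of peaks passed 70 tags (5.24% to 10.9%), against 10.2% of all alpha peaks. The share was 10.8% (8.10% to 14.4%) in the first part and 11.7% (9.48% to 14.3%) in the last. These intervals overlap, but overlap does not measure the differences between the parts, which were not tested. Mean input was 2.58 tags (SD 1.97, n = 378 peaks) in the first part, 2.57 (SD 1.95, n = 342 peaks) in the middle part and 2.79 (SD 2.09, n = 695 peaks) in the last, so the first and middle parts had nearly equal input.

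Of the 129 bins of 1 Mb from the first to the last peak, 107 held at least 1 peak, with a median of 10, and 22 held none. Over all 1993 autosomal bins with a peak, chromosome 8 included, the median was 9. The 25 bins with 20 or more peaks held 53.9% of all chromosome 8 peaks. This share and the division into 3 parts were not computed for the other autosomes. The uneven spread is therefore not shown to be particular to chromosome 8. The 3 longest stretches without a peak ran from centre to centre over 4.94 Mb (98440261 to 103380316), 4.86 Mb (49841039 to 54704918) and 4.17 Mb (18715266 to 22889692). The longest was exceeded on 8 other autosomes, with 8.87 Mb on chromosome 15 as the highest. Binding at the edges of these stretches was of unequal height: the peaks that bound the longest held 25 and 48 tags, those of the second 48 and 16, and those of the third 127 and 27.

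The fullest bin, from 129 to 130 Mb, held 67 peaks and 3340 tags, more of both than any other of the 1993 autosomal bins with a peak when bins started at whole Mb. The next was on chromosome 5, from 125 to 126 Mb, with 60 peaks, and by tags the next was on chromosome 2, from 167 to 168 Mb, with 3096. This first place depended on where the bins began: with bins shifted by 0.5 Mb, a setting chosen after the data were seen, the fullest chromosome 8 bin held 46 peaks and ranked 12 by peaks and 3 by tags. The other full bins on chromosome 8 were those from 124 to 125 Mb with 45 peaks, from 11 to 12 and from 47 to 48 Mb with 40 each, and from 73 to 74 Mb with 35, a number also found from 126 to 127 Mb.

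Peaks of the fullest bin were also taller at the median. They held a median of 39 tags (quartiles 22 and 60; range 14 to 177) against 27 (19 and 45; range 12 to 240) on the rest of the chromosome. Over the whole chromosome, peaks in chained groups of 5 or more had a similar median, 38 tags (quartiles 23 and 59). Of the 67 peaks, 12 passed 70 tags (17.9%, 10.6% to 28.7%). On the rest of chromosome 8 the share was 10.1% (8.59% to 11.8%). These intervals overlap, but overlap does not measure the difference between the shares, which was not tested. The 10.2% of all alpha peaks lies just below the interval of the bin. The bin held 4 of the 20 tallest sites of the chromosome. All 4 lay in its first 500 kb, where 44 peaks had a median of 47.5 tags, while the 23 peaks of the second 500 kb had a median of 28. Mean input was 3.04 tags (SD 2.37, n = 67 peaks) in the bin and 2.66 (SD 2.01, n = 1348 peaks) on the rest of the chromosome. Input was thus slightly higher where the peaks were taller; its part in the heights was not tested.

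The tall peaks of the bin came in several groups and not as one. The peaks at 129133760 (177 tags) and 129138079 (145 tags) ended a chained group of 10. Further along, the peak at 129244519 (164 tags) began a group of 5 that also held the peak at 129259753 (154 tags) and, 720 bp from it, one at 129260473 with 98 tags. The third of these groups had 3 peaks, of which those at 129331379 and 129332534 held 131 and 133 tags. Between these groups stood gaps of up to 42.6 kb.

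**Figure D5:**
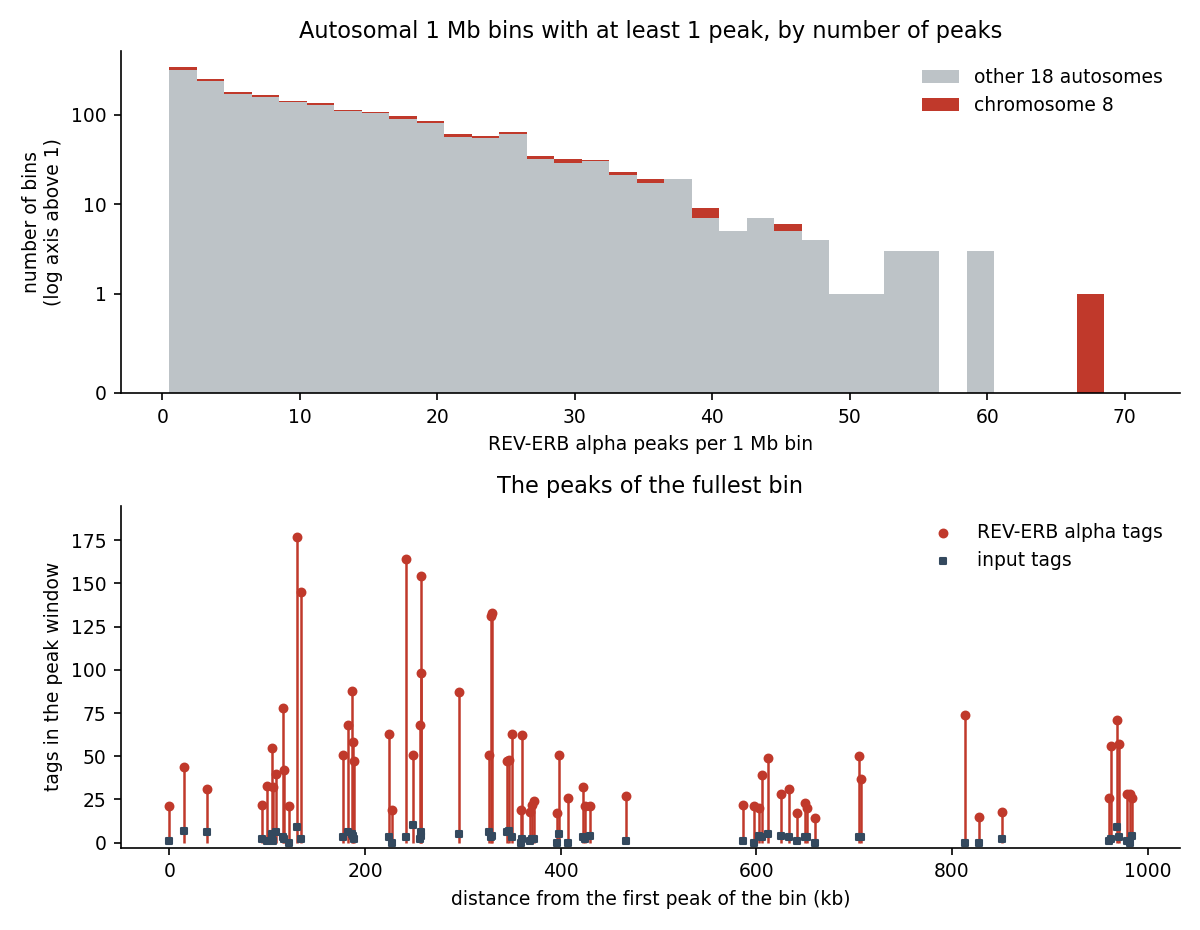
Top, autosomal 1 Mb bins with at least 1 peak by their number of REV-ERB alpha peaks, with chromosome 8 in red (the vertical axis is logarithmic above 1); the bin at the far right holds 67 peaks, against 60 in the next. Bottom, tags (red) and input tags (dark squares) of these 67 peaks against the distance in kb from the first of them, with the 4 tallest, at 145 to 177 tags, in the first 500 kb.

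Peaks on chromosome 8 lay closer together than on most autosomes, with values near those of chromosome 19. The median distance between neighbouring peak centres was 14474 bp on chromosome 8 (quartiles 4568 and 55534 bp) and 17913 bp on the other autosomes pooled (5012 and 68840 bp). Of the autosomes, chromosome 19 alone had a shorter median, 14437 bp. A neighbour within 10 kb was found for 891 of the 1415 peaks, or 63.0% (60.4% to 65.4%), against 58.6% of all alpha peaks; the value on chromosome 19 was 63.5%. Groups of 3 or more held 585 peaks, or 41.3% (38.8% to 43.9%), against 35.1% of all alpha peaks and a range of 30.4% to 40.8% over the other autosomes. The highest of these, on chromosome 19, lies inside the interval of chromosome 8. Without the fullest bin, a setting chosen after the data were seen, the share was 39.4% (36.8% to 42.0%), second to chromosome 19. With gaps of at most 5 kb it was 17.5%, against 16.8% on the other autosomes, and chromosome 8 ranked 7 of 19. With gaps of at most 20 kb it was 59.9%, second to the 61.9% of chromosome 19. At the shortest distances the chromosome did not stand out: 6.51% of neighbouring pairs lay within 1 kb, against 6.77% on the other autosomes. The closest pair, 399 bp apart at 96911024 and 96911423, held 23 and 21 tags.

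Under the 10 kb rule the chromosome had 524 single peaks, 153 pairs and 133 groups of 3 or more. The group with the most peaks ran from 119832662 to 119879277 and had 11 peaks with 17 to 111 tags (median 34 tags; 498 tags and 32 input tags in all). Its last peak, at 119879125, was the tallest, and 4 peaks near its middle held 57 to 69 tags.

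Of 3 groups with 10 peaks, the one from 112496969 to 112524348 was the most evenly filled. Its peaks held 40 to 106 tags (median 64), with 652 tags and 40 input tags in all, and none of them fell below the chromosome's median of 28. It was also the shortest of the 5 largest groups, at 27.2 kb, and the 10 kb around 1 of its peaks, at 112516523, held 1018 tags. The group from 129097839 to 129138231 had 21 to 177 tags per peak (median 41, 645 in all), and its 2 tallest peaks made up the end of the row. The group from 73171354 to 73211804 had 19 to 95 tags (median 27.5, 411 in all), with 2 tall peaks of 95 and 90 tags among low ones.

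The fifth group, with 9 peaks from 10940023 to 10985335, had the most unequal make-up. Its first peak held 165 tags and the other 8 held 15 to 43 tags, with 366 tags and 23 input tags in all. A tall site with low companions and a row of even sites thus both occur among the largest groups, and input in these 5 groups was at most 10 tags per window.

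Taller peaks had neighbours more often. On chromosome 8 a peak within 10 kb was found for 42.4% of the lowest 25% of peaks by tags (37.3% to 47.6%) and for 77.4% of the highest 25% (72.8% to 81.5%). On the other autosomes the corresponding shares were 42.8% and 72.4%, so the direction is not particular to chromosome 8. Single peaks on chromosome 8 had a median of 23 tags (quartiles 17 and 36), pairs 26, groups of 3 to 4 peaks 35 and groups of 5 or more 38 (23 and 59). Mean input moved the same way, from 2.40 tags (SD 1.84, n = 524 peaks) in single peaks to 3.05 (SD 2.24, n = 293 peaks) in groups of 5 or more. On the other autosomes mean input went from 2.42 tags (SD 1.88, n = 9472 peaks) to 3.00 (SD 2.25, n = 2940 peaks). The part of input in the difference in height was not tested.

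The heights of neighbouring peaks were more closely correlated at short range. Over the 605 neighbouring pairs of chromosome 8 at most 10 kb apart, Spearman's rho of their tags was 0.29 and Pearson's r 0.26, and over the 809 pairs farther apart they were 0.02 and 0.12. All pairs share 1 library, and a peak can belong to 2 pairs. The floor on density can leave out a low peak beside a tall one, so part of this relation can be built into the list. No windows overlap, since the smallest distance between centres is 399 bp. The taller peak of a pair held, at the median, 1.57 times the tags of the lower within 10 kb and 1.65 times beyond it. On the other autosomes these ratios were 1.60 and 1.59, so by this measure the distance made little difference there. The correlations fell there too: rho was 0.26 within 10 kb and 0.05 beyond it, and r was 0.23 and 0.04. The closer correlation at short range is thus not particular to chromosome 8.

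The 10 kb around the peaks carried more tags on chromosome 8 than on most autosomes. The median was 222 tags, against 202 on the other autosomes pooled, and of these chromosome 17 alone was higher, at 224. The tag density in the window was a smaller multiple of that in its surroundings: the median was 10.2 times on chromosome 8 (quartiles 6.75 and 16.1) and 11 times on the other autosomes (7.31 and 17.4). Only chromosome 11 had a lower median, 10.1. Neighbouring peaks can add tags to the surroundings, and their part in the ratio was not tested. On chromosome 8 the ratio was 12.2 among single peaks and 8.33 in groups of 5 or more. On the other autosomes it was 13.4 among single peaks and 8.29 in groups of 5 or more. Chromosome 8 was thus lower than the other autosomes among single peaks and also in pairs (9.40 against 10.6), but higher in groups of 3 to 4 (9.95 against 9.05) and nearly level in groups of 5 or more.

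The 3 sharpest sites by this ratio had no other peak within 10 kb, but the next ones did. The peaks at 129244519 (ratio 80.0) and 11021283 (ratio 77.9) had neighbours at 7.69 kb and 8 kb. Each lay in a chained group of 5. Sharp sites thus occurred both alone and in groups. The sharpest site, at 58748599 to 58748751, held 117 of the 175 tags in its 10 kb and 5 input tags. This site had a density 130 times that around it. It was followed by a low peak in a quiet stretch, at 63045695 to 63045847, with 31 of 53 tags, and by one at 31188320 to 31188472 with 79 of 136 tags and 0 input tags. The last of these was also among the 5 most isolated peaks, with 789 kb to its nearer neighbour. The others of these 5 were low: 18 tags at 7092910 to 7093062 (nearer neighbour at 1988 kb), 13 tags at 44244252 to 44244404 (1546 kb), 20 tags at 69110874 to 69111026 (908 kb) and 26 tags at 66307074 to 66307226 (781 kb). So 4 of the 5 most isolated peaks lay below the median height of the chromosome and 1 lay above 70 tags.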

How the data were processed

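ChIP-seq was done on mouse liver with 1 library for REV-ERB alpha, 1 for REV-ERB beta and 1 input. The aligner Bowtie, the peak caller HOMER and the mm9 assembly are named in the submitters' processing notes; their versions and the library totals were not given in these sources. The deposited lists hold raw tag counts, not scaled to library size, in fixed windows (153 bp for alpha), per the file headers. The score of each deposited peak is the authors' peak caller's own whole number. The deposited FDR is 0 in every row and was not used.

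All 1415 alpha rows on chromosome 8 were kept. Fold over input is (tags + 1) / (input tags + 1). Density is the tags per bp of the window divided by those per bp of the rest of the 10 kb around it. Clusters chain peak centres at most 10 kb apart. Strong means in the highest 10% of the whole alpha list, ties included. Named sites are the 20 tallest peaks, all peaks of the carboxylesterase region, the 5 largest clusters, the 5 peaks with the most input, the 5 with the fewest tags, the 5 most isolated, the 5 fullest 1 Mb bins and the 3 longest gaps; the peaks inside the fullest bin and the sharpest peaks were chosen after their values were seen. The sites and these rules were chosen with earlier results of these data known. No model was fitted, because each antibody had 1 library. The planned gene neighbourhood was not computed, because no mm9 annotation was used here. Shares have Wilson intervals and tag counts exact Poisson intervals. The cluster and interval code was tested on simulated data. Python 3.11.15, numpy 2.4.6, pandas 2.3.3, scipy 1.17.1 and matplotlib 3.10.9 were used.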

Additional observations from a re-analysis of the deposited data

How the results depend on the processing

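Medians and shares moved with their definition; values of the other autosomes or of the whole list under the same setting stand in brackets. The median height of 28 tags became 24 with unique positions (23 on the other autosomes) and 32 among the 1030 peaks with tags at least 8 times the input (31). The share of strong peaks, 10.5%, was 8.41% by density over the surrounding 10 kb (7.07% to 9.97%; whole list 10.0%), 5.23% for the top 5% (whole list 5.08%) and 0.848% for the top 1% (whole list 1.03%). The share of peaks with a neighbour, 63.0%, was 45.6% with gaps of at most 5 kb, 75.4% with 20 kb and 57.4% in the top 50% of the list (43.0%, 72.5% and 53.4% on the other autosomes). The share in clusters of 3 or more, 41.3%, was 17.5%, 59.9% and 36.5% under the same settings (16.8%, 54.0% and 28.5%), ranking 7, 2 and 1 of 19. The median fold over input of 9 was 11 where input was above 0 (11). In the carboxylesterase region the tallest peak had 26.1% of unique positions, against 32.7% of tags. The fullest bin held 44 peaks in the top 50% of the list, still the highest count, but the shifted bins ended its first place. The other settings run left the value within its interval or, for the count in the fullest bin, within 1.5 times. Settings for bins and for clusters of 3 or more were chosen after the data were seen. No paired analysis was possible because only 1 REV-ERB alpha library exists in these files; for the same reason none could be left out. The effect of depth was not tested.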
